A study of Mus musculus with 4 samples.

Results

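The HoxC cluster was examined as the set of accessible regions that belong to its 9 protein-coding genes, Hoxc4, Hoxc5, Hoxc6, Hoxc8, Hoxc9, Hoxc10, Hoxc11, Hoxc12 and Hoxc13. A region was counted when the transcription start nearest to its centre was that of a HoxC gene, or when its centre lay within 2.5 kb of such a start. This gave 28 of the 42613 regions of the E9.5 list and 21 of the 46765 regions of the E10.5 list. The regions came from ATAC-seq, in which a transposase inserts sequencing adapters into open chromatin, on wild-type mouse embryos of the NMRI strain. Each E9.5 sample (called E9.75 in the protocol) came from 1 embryo and held both forelimb buds with the trunk piece they sit on, and each E10.5 sample held both forelimb buds of 1 embryo. For E10.5, one label adds hindlimb buds, which neither the source label nor the protocol does.

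Each stage had 2 replicates, which the authors merged into 1 list. No difference between the stages therefore has a replicate error, and none was tested. Stage and trunk tissue cannot be told apart in any comparison, nor, in bulk tissue, can fewer cells of one type and less open chromatin per cell. Each region carries a score that grows with the strength of its best replicate peak and with sequencing depth, which is unknown here. Scores are given as deposited, and between the lists only their percentile within the list was compared, where 100 is the strongest region. Among cell type markers, all 8 limb mesenchyme genes listed (such as Prrx1, Tbx5 and Fgf10) had a region within 2.5 kb of a start at both stages, which 61.5% of all protein-coding gene names had. So did all 8 somite and trunk genes (such as Myf5, Pax3 and Meox1), although no trunk is named for E10.5, and the 3 neural tube genes in the annotation (Pax6, Olig2, Nkx6-1), so these counts do not tell the tissues apart. Of the ectodermal ridge genes 3 of 5 were marked at both stages, with Fgf8 at E9.5 only and Trp63 at neither. Of the hindlimb genes it was 2 of 3, with Pitx1 at E9.5 only. Of the intermediate mesoderm and body wall genes it was 3 of 4, with Pax2 at E9.5 only, and of the blood and vessel genes 2 of 4, with Gata1 and Cdh5 at neither. By regions, 31 of 77 of the trunk genes (40.3%) and 17 of 66 of the limb mesenchyme genes (25.8%) had no E10.5 overlap, and 18 of 67 (26.9%) and 38 of 88 (43.2%) had no E9.5 overlap. Over the lists the shares were 29.9% and 35.0%. The intermediate mesoderm and body wall genes lay above both, at 58.6% for E9.5 and 45.5% for E10.5. In the same order, the shares were 38.5% and 36% for the hindlimb genes and 39.3% and 32.1% for the ectodermal ridge genes. They were 22.7% and 34.6% for the blood and vessel genes. For the neural tube genes the counts were 9 of 28 and 3 of 23. What part such other cells have in the HoxC values was not tested.

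Hox genes encode homeodomain transcription factors that give cells their position along the body axis, and mammals carry them in the clusters HoxA, HoxB, HoxC and HoxD. Genes are ordered along each cluster as they are expressed along the body, from the anterior genes of low number at the 3′ end to the posterior genes of high number at the 5′ end. In the forelimb, the anterior and central HoxC genes such as Hoxc4 to Hoxc6 and Hoxc8 are known to be expressed, whereas Hoxc9 to Hoxc11 are better known from the more posterior trunk and the hindlimb, and Hoxc13 from hair and nails. In limb buds the posterior HoxA and HoxD genes carry most of the patterning of the limb skeleton.

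All 9 genes lie on the plus strand of chromosome 15, with Hoxc13 first and Hoxc4 last. Coordinates are in mm9 (NCBIM37). The sequences below are the 300 bases at the centre of selected E9.5 regions, and the 300 bases just before the first start of Hoxc9. Of the 2 annotated starts of Hoxc9, this one lay in a called region, at E9.5 only. The last window was chosen after the values were seen. All are plus strand, 5′ to 3′. Capitals mark matches, on either strand, to short motifs of Hox proteins and their partners. These were TGATNNAT for PBX-HOX dimers and TGACAG for the MEIS and PKNOX cofactors. For posterior HOX proteins the letters TTTATGG were searched, and as a second form of the motif CAATAAA. Homeodomains in general were represented by TAATTA, the GATA family of factors by AGATAA and the SMAD proteins by the palindrome GTCTAGAC.
4.57 kb 3′ of Hoxc4, E9.5-specific, chr15:102869247-102869546: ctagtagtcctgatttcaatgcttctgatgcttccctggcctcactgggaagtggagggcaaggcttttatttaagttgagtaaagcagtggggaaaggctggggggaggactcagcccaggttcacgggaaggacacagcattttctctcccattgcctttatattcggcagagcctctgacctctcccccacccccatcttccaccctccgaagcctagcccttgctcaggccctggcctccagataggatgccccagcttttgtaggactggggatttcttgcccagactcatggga
Upstream of Hoxc5, shared, chr15:102842927-102843226: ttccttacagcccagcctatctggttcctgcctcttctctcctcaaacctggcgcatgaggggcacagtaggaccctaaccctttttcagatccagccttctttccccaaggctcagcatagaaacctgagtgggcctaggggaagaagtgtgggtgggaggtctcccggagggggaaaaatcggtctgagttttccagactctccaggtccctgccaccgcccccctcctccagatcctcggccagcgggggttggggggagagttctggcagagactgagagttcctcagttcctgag
26.0 kb 3′ of Hoxc4, shared, chr15:102890674-102890973: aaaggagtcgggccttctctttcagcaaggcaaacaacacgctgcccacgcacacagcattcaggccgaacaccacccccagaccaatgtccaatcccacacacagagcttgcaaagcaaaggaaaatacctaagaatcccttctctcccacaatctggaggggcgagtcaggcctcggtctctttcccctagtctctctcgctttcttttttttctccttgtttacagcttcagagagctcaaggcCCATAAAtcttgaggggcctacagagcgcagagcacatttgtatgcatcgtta
31.4 kb 3′ of Hoxc4, shared, chr15:102896041-102896340: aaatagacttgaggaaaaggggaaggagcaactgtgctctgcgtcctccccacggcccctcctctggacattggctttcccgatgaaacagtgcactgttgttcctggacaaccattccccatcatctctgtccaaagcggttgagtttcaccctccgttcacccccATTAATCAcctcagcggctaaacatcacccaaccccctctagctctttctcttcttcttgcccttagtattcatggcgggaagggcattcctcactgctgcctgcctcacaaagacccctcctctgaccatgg
34.9 kb 3′ of Hoxc4, shared, chr15:102899611-102899910: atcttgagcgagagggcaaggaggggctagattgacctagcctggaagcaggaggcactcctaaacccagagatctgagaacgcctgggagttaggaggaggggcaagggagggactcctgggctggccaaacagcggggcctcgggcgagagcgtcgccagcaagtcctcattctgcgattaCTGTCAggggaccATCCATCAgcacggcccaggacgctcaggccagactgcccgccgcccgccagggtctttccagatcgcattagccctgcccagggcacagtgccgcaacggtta
Before the start of Hoxc9, E9.5-specific, chr15:102806570-102806869: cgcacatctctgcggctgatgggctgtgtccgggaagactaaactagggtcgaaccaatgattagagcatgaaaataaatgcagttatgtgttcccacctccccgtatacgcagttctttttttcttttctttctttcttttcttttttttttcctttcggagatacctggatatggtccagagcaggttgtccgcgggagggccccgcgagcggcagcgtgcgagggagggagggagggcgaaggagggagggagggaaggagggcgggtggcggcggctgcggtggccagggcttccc

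The first of these is the centre of the strongest region found at E9.5 only, and it holds none of the motifs. The second is the centre of the E9.5 region with the highest summed score of both stages. Its label, shared, describes that whole region. The printed window lay in the 2666 bp between the E10.5 regions it faced, and so in no E10.5 region. The third holds a TTTATGG match, the fourth a TGATNNAT match, and the fifth a TGATNNAT and a TGACAG match 7 bases apart. The window before Hoxc9 holds no match. A match describes letters only and is not evidence of binding.

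The first comparison was of the HoxC regions between the stages. Among the 28 E9.5 regions, 10 did not overlap an E10.5 region by 1 bp or more and are called E9.5-specific. This was 35.7% (95% Wilson interval 20.7 to 54.2%, counting error only, with regions treated as independent), beside 29.9% of all E9.5 regions. Of the 21 E10.5 regions, 0 were E10.5-specific, which allows a share of up to 14.3%, beside 35.0% of all E10.5 regions. The E9.5 share was thus near that of the whole list, with a difference of 5.84 percentage points (95% Newcombe interval −9.17 to 24.3) from all other regions. The E10.5 share lay below that of the whole list (difference −35.1 points, interval −35.5 to −19.6). Both kinds of region had 0 E10.5-specific ones. For the 12 within 2.5 kb of a HoxC start, called promoter regions, this allows a share of up to 25%. It was not told apart from the 5.31% of all promoter regions of the list. For the 9 farther away it allows up to 33.3%, beside 49.6% of all distal regions. Promoter regions were 12 of the 21 HoxC regions but 15389 of 46765 in the list, which the difference above does not account for. The lack of E10.5-specific regions depended on the overlap rule. When each region of a pair had to cover at least 50% of the other, 7 of 21 E10.5 regions (33.3%) had no partner, beside 39.3% of the whole list, and 14 of 28 at E9.5, beside 33.4%. At E9.5, 3 of 12 promoter regions were specific (all promoter regions, 13.1%) and 7 of 16 distal ones (all distal regions, 40.3%).

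**Figure D1:**
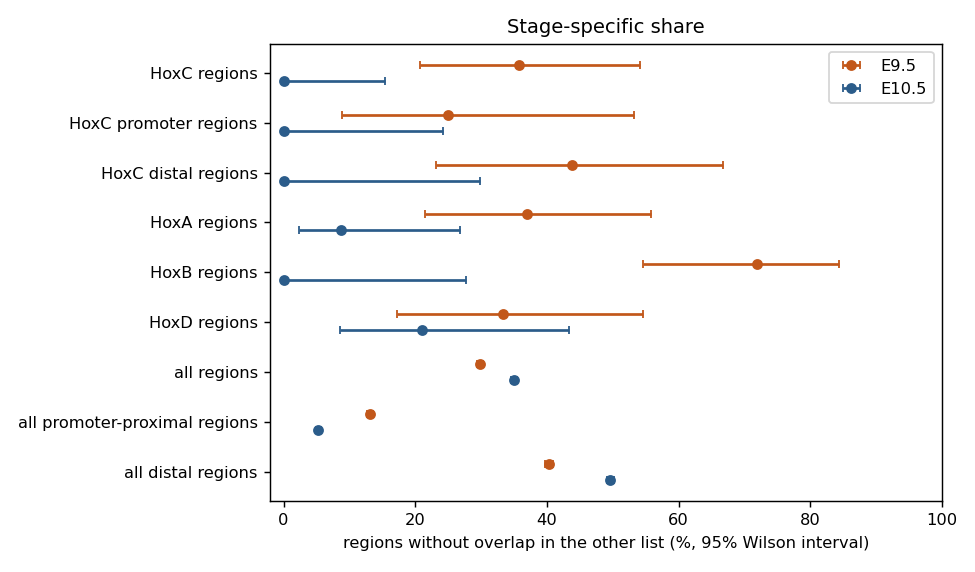
Share of regions without overlap in the other list (x axis, percent) for HoxC, the other Hox clusters and the whole lists (rows), at E9.5 and E10.5. Points are shares and bars 95% Wilson intervals. The E10.5 share of HoxC is 0 of 21, while the E9.5 shares of HoxC, HoxA and HoxD lie between 33.3% and 37.0% and that of HoxB at 71.9%.

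The E9.5-specific regions were spread over both ends of the cluster. Of the 8 E9.5 regions of the posterior genes Hoxc9 to Hoxc13, 4 were specific, and of the 20 of Hoxc4 to Hoxc8, 6 were. The corresponding E10.5 counts were 0 of 4 and 0 of 17. Of the E9.5-specific regions, 5 of 10 were nearest Hoxc4. They were mostly weak, with a median percentile of 33.3 (95% interval 12.1 to 54.8), beside 63.3 for the 18 shared HoxC regions (40.1 to 79.0). The whole E9.5 list showed the same order, at 26.9 for specific and 63.2 for shared regions. Below the median score of the list, 8 of 14 HoxC regions were specific (whole list, 48.9%), and above it 2 of 14 (whole list, 10.8%). At E10.5 the counts were 0 of 10 below the median (whole list, 52.0%) and 0 of 11 above it (18.1%).

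**Figure D2:**
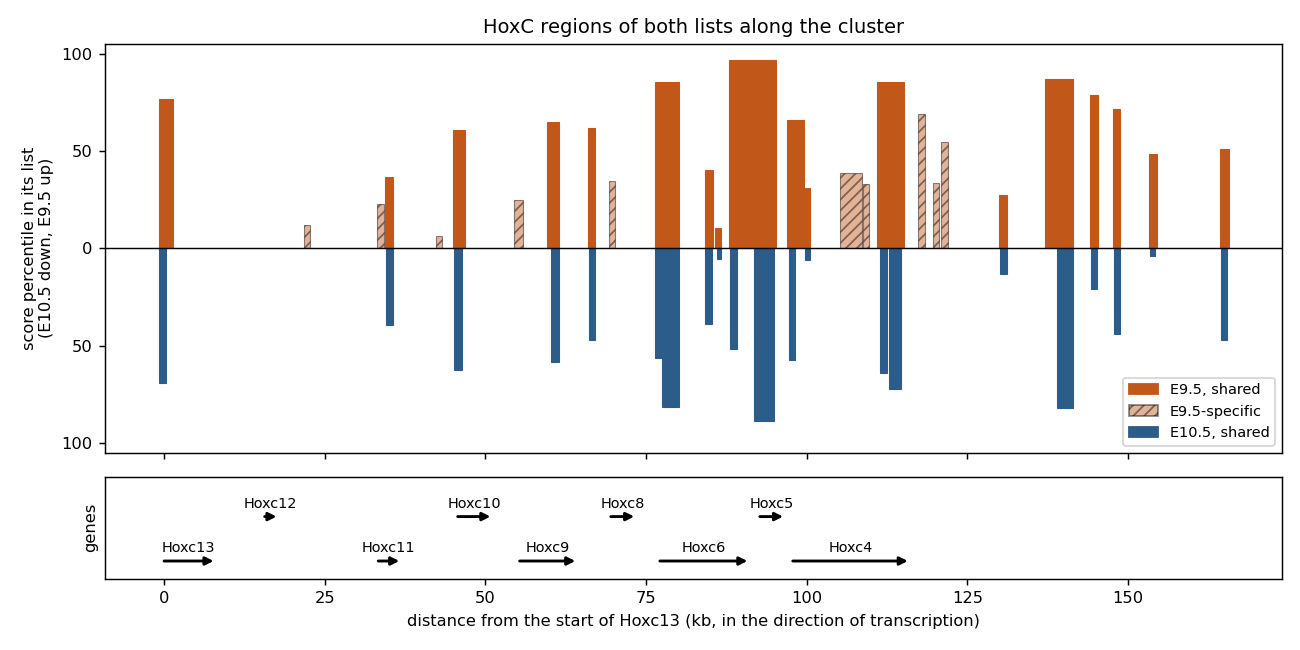
HoxC regions along the cluster (x axis, kb from the start of Hoxc13 in the direction of transcription) with their score percentile (y axis, E9.5 upward, E10.5 downward). Filled bars overlap a region of the other list, hatched bars do not, bar width is region width, and arrows mark the genes. The hatched bars are spread from Hoxc12 to Hoxc8 and lie close together within and 3′ of Hoxc4, and each E10.5 bar stands under an E9.5 bar.

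The anterior genes Hoxc4, Hoxc5 and Hoxc6 held the strongest regions of the cluster. The strongest at both stages lay over Hoxc5. At E9.5 it was a single region of 7291 bp, chr15:102839431-102846721, with a score of 2632.66 (percentile 96.6), which ran over a start of Hoxc6, the start of Hoxc5 and the microRNA gene Mir615. At E10.5 the same stretch held separate regions, chr15:102839647-102840743 at a start of Hoxc6 with a score of 252.95 (percentile 51.7) and chr15:102843410-102846402 over Hoxc5 and Mir615 with 1156.08 (percentile 88.7). The strong Hoxc5 region was thus the strongest HoxC region at both stages, and the 2666 bp between the E10.5 regions were accessible at E9.5.

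Hoxc6 has 3 annotated starts spread over its locus. Its strongest E9.5 region, chr15:102827873-102831731 with a score of 1331.03 (percentile 85.6), ran over the first and the middle start. At E10.5 the middle start lay in the strongest Hoxc6 region, chr15:102829045-102831603 with 797.57 (percentile 81.7). The first start lay in a separate and weaker region 8 bp away, chr15:102827932-102829036 with 288.86 (percentile 56.2), so that 1 E9.5 region again faced a pair. A weaker region in the Hoxc6 intron, chr15:102835654-102836896, had nearly the same rank at both stages, with percentiles of 40.1 and 38.6. None of the E9.5 regions of Hoxc5 and Hoxc6 was stage-specific (0 of 4, a number too small to limit the share).

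Hoxc4 had 14 E9.5 and 10 E10.5 regions, more than any other single HoxC gene at either stage. It is the last gene of the cluster and the nearest one for all HoxC regions 3′ of it, which adds to its counts. Its strongest region was distal at both stages, 26.0 kb downstream of the 3′ start at E9.5 (chr15:102888606-102893041, score 1418.82, percentile 86.8) and 26.9 kb downstream at E10.5 (chr15:102890502-102892894, score 801.95, percentile 81.8). The sequence given above, with the TTTATGG match, is the centre of the E9.5 region. The window at the centre of the E10.5 region held none of the motifs. The strongest promoter region, over the 3′ start, scored 1320.68 at E9.5 (percentile 85.4) and 523.59 at E10.5 (percentile 72.5), where it was split into 2 regions 276 bp apart. At the 5′ start of Hoxc4 the scores were 495.08 and 299.23, with percentiles of 66.0 and 57.3.

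All 5 E9.5-specific regions of Hoxc4 lay away from its starts. In the intron, chr15:102856643-102860131 scored 189.83 and chr15:102860333-102861287 scored 165.77. Downstream of the gene, chr15:102868823-102869970 scored 572.26 (percentile 69.0), the highest score of any E9.5-specific HoxC region. It was followed by chr15:102871206-102872168 with 169.27 and by chr15:102872366-102873453 with 306.14 (percentile 54.8). The last is the single stage-specific region outside the cluster span, defined as the 9 genes with 5 kb on either side. At E10.5 these 3 downstream regions fell into a stretch of 15.4 kb with no region, between the promoter of Hoxc4 and the first shared downstream region, and the intronic ones into a stretch of 10.9 kb.

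Hoxc8, a central gene expressed in the thoracic body wall and the forelimb, had an E9.5-specific region over its start, chr15:102820742-102821716, with a score of 172.96 (percentile 34.7). At E10.5, 0 bp within 2.5 kb of its start were in a region, and the nearest region edge lay 2.53 kb upstream. That region was shared. It scored 402.72 at E9.5 (chr15:102817474-102818580, percentile 61.6) and 222.4 at E10.5 (percentile 47.0), and it is the strongest Hoxc8 region of both lists. At E10.5 no region was thus called at the start of Hoxc8, where the E9.5 region was weak, while the upstream region was called at both stages. The signal at the start itself was not measured here.

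Among the posterior genes, Hoxc9 showed the same arrangement. The region over the first of its 2 starts, chr15:102805981-102807318, scored 139.93 (percentile 24.96) and was E9.5-specific, and at E10.5 the nearest region edge lay 4.33 kb from a start. The other start lay in no region of either list. The strongest Hoxc9 region was shared and lay further into the gene, over an exon, with 470.84 at E9.5 (chr15:102811048-102813037, percentile 65.0) and 312.04 at E10.5 (chr15:102811797-102813032, percentile 58.6). The start regions of Hoxc8 and Hoxc9 were both below the median score of the E9.5 list, where specific regions are common.

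Hoxc10 and Hoxc11, best known for roles in the hindlimb and lower spine, kept their rank. The start of Hoxc10 scored 393.42 at E9.5 (chr15:102796466-102798349, percentile 61.1) and 355.26 at E10.5 (chr15:102796639-102797925, percentile 62.4). The strongest Hoxc11 region, in its intron, scored 181.09 at E9.5 (chr15:102785956-102787101, percentile 36.8) and 184.92 at E10.5 (chr15:102786066-102787097, percentile 39.3). These are the shared pairs in which the percentile was higher at E10.5, with an E9.5 minus E10.5 difference of −1.36 points for Hoxc10 and −2.48 for Hoxc11. Each gene also had a weak E9.5-specific region, chr15:102784717-102785790 over the start of Hoxc11 with 134.17 and chr15:102793780-102794725 upstream of Hoxc10 with 99.74. At E10.5 the nearest region edge lay 1.21 kb from the Hoxc11 start, so its start itself was in a region at E9.5 only.

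Hoxc12 had no region within 2.5 kb of its start at either stage, the single gene of the cluster without one. Its only region, chr15:102773298-102774226, was E9.5-specific with a score of 110.47 (percentile 12.1) and lay 6.57 kb downstream, 266 bp from the end of the long non-coding RNA gene Hotair. Hotair itself, transcribed from the opposite strand between Hoxc12 and Hoxc11 and known as a partner of repressive chromatin complexes, overlapped 0 regions of either list. Hoxc13, at the 5′ end, had a comparatively strong start region, with 856.67 at E9.5 (chr15:102750676-102752935, percentile 76.9) and 455.69 at E10.5 (chr15:102750764-102751763, percentile 69.0). The predicted gene Gm17649 starts within the same region at both stages, so the signal cannot be assigned to either gene. The Hoxc13 region was followed at E10.5 by 34.3 kb without a region.

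Counted by gene, a promoter region was present for 8 of the 9 HoxC genes at E9.5 and for 6 at E10.5. The 6 with one at both stages were Hoxc4, Hoxc5, Hoxc6, Hoxc10, Hoxc11 and Hoxc13 (61.5% of 22238 protein-coding gene names). Hoxc8 and Hoxc9 had one only at E9.5 (3.75% of names), 0 at E10.5 only (1.11%), and Hoxc12 at neither (33.7%). With a limit of 5 kb the count was 8 at both stages, since Hoxc8 and Hoxc9 then counted through the shared regions 2.97 and 4.95 kb from their starts. With a limit of 1 kb, 6 genes counted at E9.5 and 5 at E10.5. Hoxc8, Hoxc9 and Hoxc11 then counted at E9.5 only, and Hoxc5 and Hoxc6 at E10.5 only, since the centres of their wide E9.5 regions lay over 1 kb from a start.

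The 18 shared E9.5 regions faced 21 E10.5 regions, because 3 of the 18 spanned a pair (16.7%, beside 2.19% of all shared E9.5 regions). In the other direction it was 0 of 21 (all shared E10.5 regions, 0.658%). The E9.5 region was the wider one in 18 of 18 cases (all shared regions, 64.9%), with a median width ratio of 1.397 (95% interval of the median 1.14 to 1.61) beside 1.06 over all shared regions. All 21 E10.5 regions lay wholly inside an E9.5 region, which 46.8% of all shared E10.5 regions did. The HoxC regions at E10.5 were therefore narrower stretches of the E9.5 ones.

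In rank, 16 of the 18 shared regions had a higher percentile at E9.5 than their strongest E10.5 partner, beside 49.7% of all shared regions. The median difference was 7.85 points (95% interval 3.84 to 14.7), whereas over all shared regions the median was −0.09 and the quartiles were −9.49 and 9.71. The other Hox clusters had larger medians, 16.8 points in HoxA (interval −19.1 to 29.3, 10 of 17 higher at E9.5), 36.1 in HoxB (24.6 to 48.0, 9 of 9) and 10.3 in HoxD (−12.0 to 20.8, 9 of 14), of which the interval of HoxB lies apart from that of HoxC. Within HoxC the median difference was 13.8 points for the 9 distal regions, of which 9 of 9 ranked higher at E9.5 (all shared distal regions, 41.8%). It was 7.83 points for the 9 promoter regions, of which 7 of 9 did (all shared promoter regions, 58.4%).

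The largest differences lay 3′ of Hoxc4, all in intergenic sequence. At chr15:102895559-102896821, 31.4 kb from the start of Hoxc4, the scores were 956.34 and 127.29 for E9.5 and E10.5, and the percentiles 79.0 and 21.1. At chr15:102904832-102905967, 40.6 kb away, the scores were 250.62 and 85.45 and the percentiles 48.7 and 3.72. At chr15:102899206-102900314, 34.9 kb away, the scores were 647.54 and 205.91 and the percentiles 71.3 and 43.9. The differences were 57.9, 45.0 and 27.5 points. Their neighbours on either side differed far less, by 4.99 points for the strong region 26.0 kb away and by 3.59 points for the last region of the cluster, chr15:102915911-102917235 at 51.7 kb. At the other end of the order stood Hoxc11 (−2.48 points), Hoxc10 (−1.36) and the Hoxc6 intron (1.497).

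**Figure D3:**
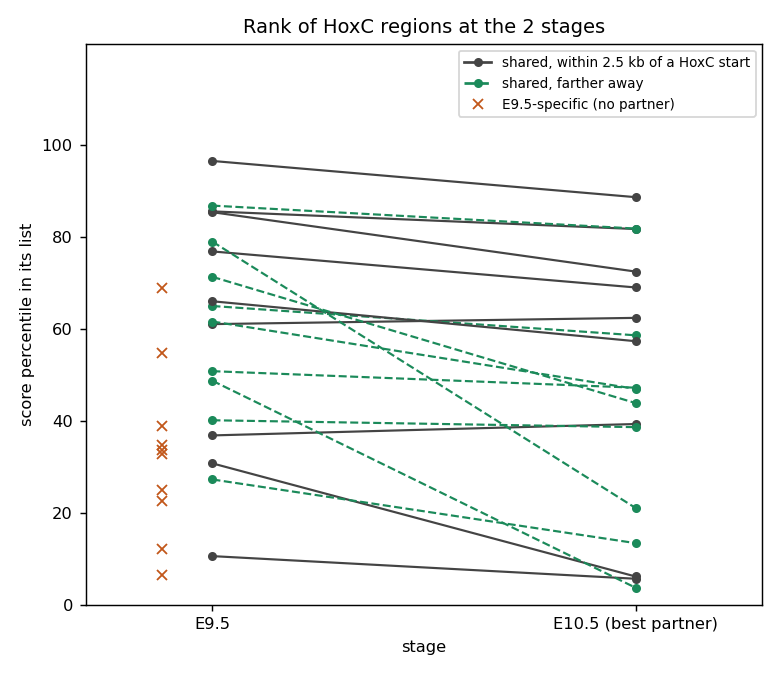
Score percentile (y axis) of the 18 shared HoxC regions at E9.5 and of their strongest E10.5 partner (x axis), joined by lines that are solid for promoter and dashed for distal regions. Crosses are the 10 E9.5-specific regions. Of the lines, 16 run downward, and the 2 steepest are the distal regions 31.4 and 40.6 kb 3′ of Hoxc4.

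The cluster span of 125.741 kb (chr15:102746534-102872274) had 41297 bp in regions (32.8%) for E9.5 and 19820 bp (15.8%) for E10.5, called accessible bases here. The ratio was 2.08, while the whole lists covered nearly equal lengths, with a ratio of 1.02. All accessible bases of the span at E10.5 were accessible at E9.5 too (100%, beside 67.9% over the whole list), and 48.0% of those at E9.5 also at E10.5 (whole list, 66.4%). From Hoxc13 to Hoxc9, 17.6% of bases were accessible at E9.5 and 7.56% at E10.5. From Hoxc8 to Hoxc4 it was 53.3% and 26.8%, so the anterior part was the denser one at both stages. The stretch from the end of the span to the last region had 25.9% and 15.4%.

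The surroundings of the cluster differed between its ends. Upstream of Hoxc13, no region was called over 166.3 kb at E9.5 and 166.4 kb at E10.5, as far as a shared region nearest Calcoco1. Downstream, the last HoxC region lay 51.7 kb from the start of Hoxc4, and the next region, nearest Smug1, followed after 9.65 kb at E9.5 and after 15.3 kb at E10.5. These distances are of the size of gaps inside the cluster, so the 3′ limit rests on the nearest-gene rule. Of the microRNA genes of the cluster, Mir615, within Hoxc5, lay inside a shared region, whereas Mir196a-2, between Hoxc10 and Hoxc9, lay outside every region, 2100 bp from the nearest one at E9.5 and, at E10.5, 5847 bp. miR-196a is known to target Hox messenger RNAs, in particular Hoxb8. The main mature forms are shown from RefSeq (GRCm38.p6, both genes matched), 5′ to 3′, with the seed, bases 2 to 8, in capitals, since they differ in it. ATAC-seq reads the openness of the gene and not the amount of microRNA.
mmu-miR-615-3p: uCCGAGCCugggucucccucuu
mmu-miR-196a-5p: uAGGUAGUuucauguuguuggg

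The other Hox clusters were the loci most like HoxC. The E9.5-specific share of HoxC was lower than that of HoxB, where 23 of 32 regions were specific (difference −36.2 points, Newcombe interval −55.7 to −10.9). It was not told apart from HoxA (10 of 27, difference −1.32, interval −25.3 to 22.8) or HoxD (7 of 21, 2.38, −23.7 to 26.9). The E10.5-specific share, 0 of 21 in HoxC, was lower than in HoxD (4 of 19, difference −21.1, −43.3 to −1.14, but −8.77 with a reciprocal overlap of 50%) and not told apart from HoxA (2 of 23, −8.70, −26.8 to 7.99) or HoxB (0 of 10, 0, −27.8 to 15.5). With the reciprocal overlap these differences were −36.2 points from HoxA and −26.7 from HoxB, and with the higher-scoring 50% of each list the difference from HoxA was −25 points. The intervals treat regions as independent, which neighbours in a cluster may not be. In accessible length, the ratio of E9.5 to E10.5 was 2.08 in HoxC, 1.88 in HoxA, 1.70 in HoxD and 5.29 in HoxB. The share of accessible E10.5 bases that were also accessible at E9.5 was 100% in HoxC and HoxB, 87.0% in HoxA and 74.3% in HoxD.

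**Figure D4:**
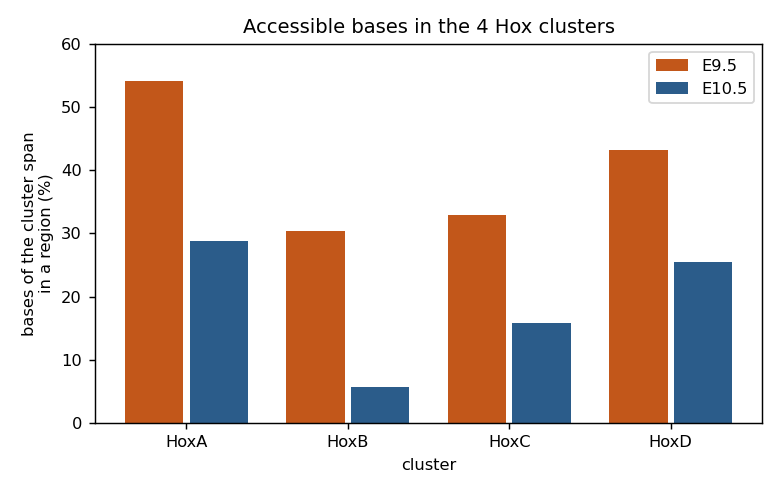
Percent of the bases of each Hox cluster span (y axis; the genes with 5 kb on either side) that lie in an accessible region at E9.5 and E10.5. HoxC goes from 32.8% to 15.8%, and HoxB, the lowest at E10.5, from 30.3% to 5.73%.

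Each HoxC gene was set beside its paralogues, the genes of the same number in the other clusters, beginning with the posterior ones. Of the 8 posterior HoxA and HoxD genes with a promoter region at both stages, Hoxa9, Hoxa10, Hoxa11, Hoxd9, Hoxd10, Hoxd11 and Hoxd12 had a higher percentile at E10.5 and Hoxd13 a lower one. The promoter percentile of Hoxa10 was 49.967 at the earlier and 75.8 at the later stage, that of Hoxd10 69.7 and 80.1, and that of Hoxc10 61.1 and 62.4. For group 11 the values were 7.44 and 62.3 for Hoxa11, 49.8 and 61.8 for Hoxd11, and 36.8 and 39.3 for Hoxc11. Those of Hoxc11 belong to the region in its intron, 1.67 and 1.72 kb from the start, while the start itself was in a region at E9.5 only. For group 9, Hoxa9 went from 67.1 to 86.2 and Hoxd9 from 76.7 to 87.0, while Hoxc9 (24.96) and Hoxb9 (77.2) had a promoter region at E9.5 only. Hoxc8 and Hoxb8 were alike in this, with 34.7 and 25.8 at E9.5 and no promoter region at E10.5, whereas Hoxd8 had 83.3 and 69.7. For group 12, Hoxd12 had 27.6 and 54.1, and Hoxc12 no promoter region. For group 13, Hoxa13 (20.4) and Hoxb13 (34.4) had one at E9.5 only, and Hoxc13 and Hoxd13 were lower at E10.5, by 7.83 and 13.8 points.

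In groups 4, 5 and 6 the percentile was lower at E10.5 for HoxC genes and paralogues alike, and the difference was smaller for the HoxC gene in each group. For group 4 the percentile was 12.9 points higher at E9.5 for Hoxc4 and 65.2 for Hoxa4, and Hoxb4 and Hoxd4 had a promoter region at E9.5 only. For group 5 the difference was 7.88 points for Hoxc5, 27.0 for Hoxa5 and 56.2 for Hoxb5, and for group 6 it was 3.84 for Hoxc6, 10.8 for Hoxa6 and 14.6 for Hoxb6. Hoxc4, Hoxc5 and Hoxc6 had the highest E10.5 percentile of their groups, at 72.5, 88.7 and 81.7. Over the 30 HoxA, HoxB and HoxD genes, 22 had a promoter region at both stages, 8 at E9.5 only, and 0 at E10.5 only or at neither, which left Hoxc12 as the single Hox gene of 39 with none. All values in these paragraphs are single lists without replicate error.

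**Figure D5:**
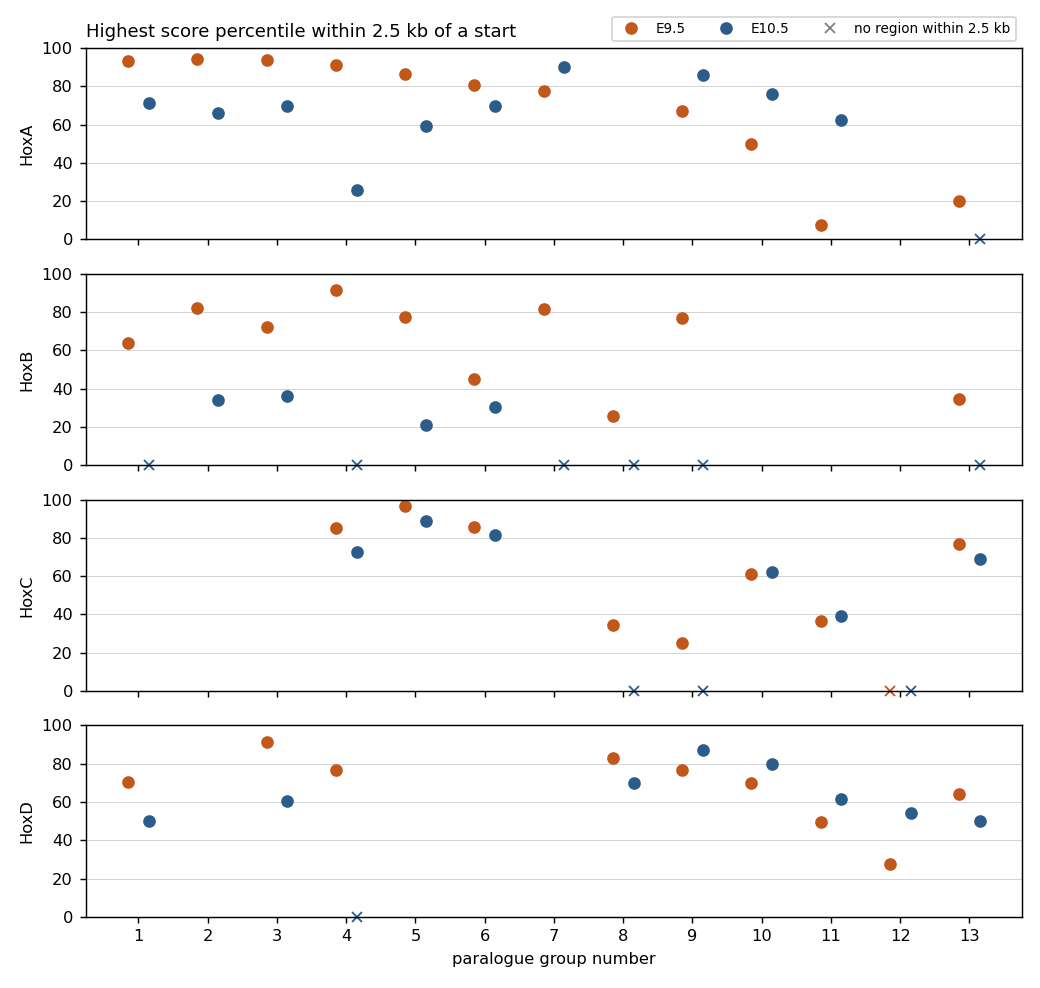
Highest score percentile (y axis) of any region within 2.5 kb of a start of each Hox gene, by paralogue group (x axis) and cluster (panels), at E9.5 and E10.5. Crosses at 0 mark genes without such a region. The posterior HoxA and HoxD genes stand higher at E10.5 up to group 12, while Hoxc10 and Hoxc11 differ by less than 3 points between the stages. The Hoxc11 values come from the region in its intron.

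The median GC content over the centre and 150 bp on either side was 54.7% at E9.5 (95% interval 51.2 to 61.5%, whole list 54.2%) and 52.5% at E10.5 (49.2 to 60.1%, whole list 50.5%). Over whole regions it was 51.4% at E9.5 (whole list 51.0%) and 51.1% at E10.5 (49.3 to 56.5%, whole list 48.3%). The ratio of observed to expected CpG was 0.4495 at E9.5 (0.362 to 0.611, whole list 0.368) and 0.510 at E10.5 (0.398 to 0.729, whole list 0.337). At E10.5 the intervals of this ratio and of the whole-region GC content lay above the list values. The interval of the central GC content included it. Both E10.5 values lay between those of all promoter regions (ratio 0.761, whole-region GC content 55.9%) and all distal regions (0.246 and 45.2%). Promoter regions were 12 of the 21 HoxC regions and 15389 of 46765 in the list. The PBX-HOX letters TGATNNAT were found in 4 of 28 E9.5 regions (14.3%, interval 5.70 to 31.5%, whole list 11.2%) and 4 of 21 E10.5 regions (19.0%, whole list 12.8%). The MEIS and PKNOX letters TGACAG were found in 2 of 28 (7.14%, interval 1.98 to 22.6%, whole list 21.5%) and 1 of 21 (4.76%, whole list 20.8%). AGATAA was found in 4 of 28 (whole list 10.4%) and 0 of 21 (whole list 9.74%), and TAATTA in 1 of 28 (5.12%) and 1 of 21 (8.78%). TTTATGG was in 1 of 28 (3.26%) and 2 of 21 (4.94%), and CAATAAA in 0 of 28 (3.51%) and 1 of 21 (5.54%). The CTCF motif was in 0 of 28 (8.83%) and 1 of 21 (9.34%). The retinoic acid receptor DR5 motif (whole lists 1.15% and 0.975%) and GTCTAGAC (0.284% and 0.306%) were in none. The 2 intergenic regions 31.4 and 34.9 kb 3′ of Hoxc4, among the 3 with the largest rank difference, both held TGATNNAT, at both stages. The windows of the stages largely coincide there, so the second stage shows the same match and is not a separate observation. The remaining region of the 3, 40.6 kb away, held none of the motifs at either stage.

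Genes that act with or on Hox proteins were marked at both stages in most cases. Of 26 listed cofactors and regulators, 21 had a promoter region at both stages (80.8%, all gene names 61.5%), 0 at E10.5 only (1.11%) and Cdx4 at neither (33.7%). The 4 with one at E9.5 only (all gene names 3.75%) were Pbx2, which encodes a Hox cofactor, Cdx1, an activator of Hox genes, Aldh1a2, the main enzyme of retinoic acid synthesis in the embryo, and Cyp26a1, which degrades retinoic acid. Of the regions of these 26 genes, 56 of 145 (38.6%) were E9.5-specific and 39 of 134 (29.1%) E10.5-specific, beside 29.9% and 35.0% over the lists.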

How the data were processed

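ATAC-seq was done by the authors on 2 forelimb bud replicates at each of 2 stages. Per the study's methods, reads were aligned to mm9 with Bowtie (version 1.1.0 in the submitters' processing notes), only uniquely placed reads were kept, peaks were called per replicate with MACS 1.4 without a control, and replicates were combined with MSPC (stringent p 1e-10, weak p 1e-06). The deposited score is 10 times the −log10 of the best replicate p-value. It depends on depth, which is unknown. Scores of 3100 or more are at a limit, which 0 of 49 HoxC regions reached.

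Regions were assigned by their centre to the nearest start of 22380 protein-coding genes (GENCODE vM1, NCBIM37, the same chromosome lengths as mm9). Hotair was matched through a synonym. Regions were shared with an overlap of at least 1 bp. Percentiles were taken over the whole list, and intervals are 95% Wilson or Newcombe intervals, or order-statistic intervals for medians. A count of 0 is given the share that 3 counts would give. Scripts in Python 3.11.15 (numpy 2.4.6, scipy 1.17.1, matplotlib 3.10.9) were tested on simulated lists.

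The genes, lists, motifs and rules were chosen with earlier results of these data known. All 9 genes were named, with the strongest region of each per list, every stage-specific region in the span (outside it the 3 strongest), the 3 shared pairs with the largest and the smallest differences, and paralogues of the same number. Alternatives were other overlap rules, distances, start sets, score cutoffs and flanks.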

Additional observations from a re-analysis of the deposited data

How the results depend on the processing

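Of 69 alternative values, 62 stayed within the counting error or 1.5 times of the reported value, 7 moved beyond it and 0 changed sign beyond their interval. With a reciprocal overlap of at least 50%, 7 of 21 E10.5 regions (33.3%) no longer had a partner, and HoxC minus HoxA at E10.5 became −36.2 points. The HoxC count follows from the rule, since narrow E10.5 regions lay inside much wider E9.5 ones. The difference from HoxA widened although the HoxC share rose, so the HoxA share rose more under this rule. With the higher-scoring 50% of each list, 14 E9.5 and 11 E10.5 regions were left, the promoter count at E9.5 was 5 genes and 26520 bp of the span were accessible at E9.5. When these stronger regions were set against the whole other list, the E9.5-specific share was 14.3%, so most specific regions were weak ones. The E9.5-specific share minus that of HoxB ranged from −25.4 to −51.9 points over its alternatives. HoxC minus HoxA at E9.5 was −24.1 points and HoxC minus HoxD at E10.5 −8.77 points with the reciprocal overlap. The differences in E9.5-specific share from HoxA and HoxD changed sign within their intervals, to 4.396 and −10.5 points with the higher-scoring 50%. Starts of protein-coding transcripts only, or distance from the region's edge, left the counts of regions at 28 and 21. With the nearest start among genes of all types the counts were 27 and 21, and 9 of the 27 were E9.5-specific (33.3%). No paired analysis was possible because the deposited files hold the replicates of a stage already merged. For the same reason leaving out each replicate was not run. Unknown depth limits all comparisons of scores, and regions near the calling threshold can be missed in either list.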
